A study of Mus musculus with 12 samples.

Results

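The 10 matricellular genes described here encode secreted proteins of the cardiac matrix, and their RNA was measured in mouse hearts under angiotensin II infusion and its treatment. They are Postn, Tnc, Thbs1, Thbs2, Thbs3, Thbs4, Comp, Sparc, Spp1 and Cilp. The set was given as a list of gene names, chosen with earlier results of these data known, and does not cover whole families: the tenascins Tnxb, Tnr and Tnn and the periostin relative Tgfbi are outside it. All 10 were found among the 47729 genes of the count table. All 10 also passed the filter on low counts, which left 15336 genes for testing. The hearts came from male C57BL/6 mice of 8 weeks and formed 4 groups of 3 RNA-seq libraries. In the Ang II + EHP-101 group, mice carried pumps that released angiotensin II (Ang II), a hormone that constricts vessels and drives cardiac fibrosis, for 28 days, and were given oral EHP-101 at 20 mg/kg in the last 2 weeks. In the Ang II + losartan group, the same infusion was joined in the last 2 weeks by losartan, a blocker of the Ang II receptor AT1, at 0.6 g/L in the drinking water. The Ang II group had the infusion with vehicle in that time, and the Control group had saline pumps. EHP-101 is known as an oral preparation whose targets are PPARγ, a nuclear receptor, and CB2, a cannabinoid receptor.

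Matricellular proteins are secreted into the matrix but are not its main structural fibres: they bind collagens, growth factors and cell surface receptors and tune how cells sense and remodel the matrix around them. Most are low in the healthy adult heart and are made again when fibroblasts become activated by pressure load, injury or transforming growth factor β (TGF-β). Periostin (Postn) is the usual marker of activated cardiac fibroblasts. Tenascin-C (Tnc) is a large glycoprotein of embryonic and remodelling tissue. Thrombospondins fall into trimeric forms (Thbs1, Thbs2), which bind CD36 and CD47 and, for Thbs1, activate latent TGF-β, and pentameric forms (Thbs3, Thbs4 and Comp). Sparc (osteonectin) is a collagen-binding protein that takes part in procollagen handling, Spp1 (osteopontin) is a ligand of integrins and CD44, and Cilp is a cartilage and cardiac fibroblast protein known to bind TGF-β and dampen its signalling.

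Total counts per library lay between 22155418 and 24040516, so depth differed little between groups. RNA was extracted from heart samples, and the labels do not say which part of the heart was taken. In such bulk RNA, a fall in the number of cells of a type and a fall in RNA per cell cannot be told apart. It is also not stated whether the 3 libraries of a group came from separate animals. The p-values therefore weigh differences against the spread between these libraries, which may not be that between animals. Between libraries of the same group, chi-square per degree of freedom was 11.6 to 144, where counting noise alone gives about 1. Control replicate 2 stood apart: its score on the first principal component, which held 35.3% of the variance, was 84.4, against -32.4 to 12.7 for the other 11 libraries. Results that rest on it are given with and without it. Heart muscle genes were high in every library (Myh6, Tnnt2 and 7 others summed to at least 60414 CPM). CPM is a gene's count scaled to a common library size of 1000000 counts, after TMM correction of the library sizes.

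The RefSeq promoter table of GRCm38.p6, which gives 250 bases before to 50 bases after each start, held 11 promoters of 8 of the 10 members. The 4 printed here belong to the members that passed the test both in Ang II hearts and in Ang II + EHP-101 hearts against Control hearts, and are shown because these members moved together. Postn and Tnc have 2 starts each in the table, and the start with a TATA match is shown. They lie at chr3:54360857-54361156 on the plus strand (Postn), chr4:64046887-64047186 on the minus strand (Tnc), chr13:92794769-92795068 on the minus strand (Thbs4) and chr9:65264930-65265229 on the plus strand (Cilp), and each is written 5′ to 3′ along its gene. Capitals mark matches to TATANAA on the gene's strand (a TATA box), to CAGAC or GTCTG (the 2 strands of a SMAD box, the core bound by the transcription factors of TGF-β) and to GGAATG or CATTCC (the 2 strands of a TEAD site).
Postn: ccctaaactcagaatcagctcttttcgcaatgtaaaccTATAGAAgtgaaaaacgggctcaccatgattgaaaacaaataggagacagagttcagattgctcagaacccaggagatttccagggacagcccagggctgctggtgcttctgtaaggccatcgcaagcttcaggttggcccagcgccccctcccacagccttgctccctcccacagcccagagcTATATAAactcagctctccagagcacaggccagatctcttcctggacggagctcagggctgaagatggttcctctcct
Tnc: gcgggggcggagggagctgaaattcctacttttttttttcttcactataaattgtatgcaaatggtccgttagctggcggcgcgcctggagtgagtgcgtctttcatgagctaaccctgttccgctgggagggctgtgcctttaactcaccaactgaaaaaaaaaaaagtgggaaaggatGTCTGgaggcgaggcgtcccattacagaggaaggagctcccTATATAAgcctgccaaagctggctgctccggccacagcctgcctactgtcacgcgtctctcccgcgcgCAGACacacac
Thbs4: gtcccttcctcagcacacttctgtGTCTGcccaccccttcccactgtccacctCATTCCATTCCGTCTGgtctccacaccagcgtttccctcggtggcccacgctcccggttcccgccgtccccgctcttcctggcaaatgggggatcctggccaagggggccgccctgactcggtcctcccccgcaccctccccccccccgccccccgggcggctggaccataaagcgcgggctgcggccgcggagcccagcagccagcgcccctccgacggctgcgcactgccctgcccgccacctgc
Cilp: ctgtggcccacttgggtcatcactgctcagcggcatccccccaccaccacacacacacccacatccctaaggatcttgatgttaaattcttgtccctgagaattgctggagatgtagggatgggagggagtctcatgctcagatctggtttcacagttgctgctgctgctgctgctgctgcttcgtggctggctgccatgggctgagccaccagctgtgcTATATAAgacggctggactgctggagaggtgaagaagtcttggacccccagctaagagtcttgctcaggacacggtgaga
In Postn, Tnc and Cilp the letters TATATAA began at positions -28, -29 and -30 from the start, where a TATA box usually sits. A match to TATANAA starting 40 to 20 bases before the start was present in 3 of the 11 member promoters, against 495 of all 32851 promoters in the table (1.51%). Thbs4 had no such match and was rich in G and C (72%). Its promoter held a pair of CATTCC matches at -197 and -192, which share a base, and GTCTG at -226 and -186. A SMAD box was in 8 of the 11 member promoters, against 49.6% of all promoters. The 11 windows come from 8 genes, and those of Tnc overlap and hold the same GTCTG, which is counted in both. There was a TEAD site in 1 of 11, against 14.7% of all promoters. The AP-1 letters TGANTCA were in none of the 11, against 7.81% of all promoters, and the CArG box, searched on both strands, was in none, against 1.63%. These are matches of letters in a fixed window and say nothing on whether a factor is bound.

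Levels were first ordered per kilobase of exon, since counts alone cannot be compared between genes of unlike length. The length was that of all annotated exons of a gene merged, such as 8702 bases for Postn and 4252 for Cilp. It can exceed the length of the RNA that is made, which would lower the level, so the order between genes depends on the annotation. In every group Sparc had the highest mean level and Tnc the lowest. Sparc averaged 203 ± 58.3 RPKM (CPM divided by exon length in kilobases) in Ang II + EHP-101 hearts, 162 ± 38.8 in Ang II + losartan hearts, 275 ± 59.0 in Ang II hearts and 137 ± 16.3 in Control hearts (SD, n = 3 each). Tnc averaged 1.77 ± 0.149, 1.06 ± 0.327, 3.24 ± 1.12 and 0.399 ± 0.138 RPKM in the same 4 groups. The order between them was not fixed: Spp1 stood above Thbs2 and Thbs3 in Ang II hearts, at 15.8 ± 18.5 RPKM, a mean whose SD exceeded it, and below both in Control hearts, at 1.298 ± 0.564 RPKM. Cilp and Postn were within their spread of each other in Ang II hearts, at 85.6 ± 12.6 and 84.2 ± 17.5 RPKM, and so were Thbs4, Thbs1, Comp and Thbs2 in Control hearts, with means of 5.01 to 5.82 RPKM. In Ang II hearts Thbs4 averaged 48.1 ± 12.9 RPKM and stood above Thbs1 at 19.7 ± 6.38 RPKM and Thbs2 at 10.7 ± 2.55 RPKM.

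**Figure D1:**
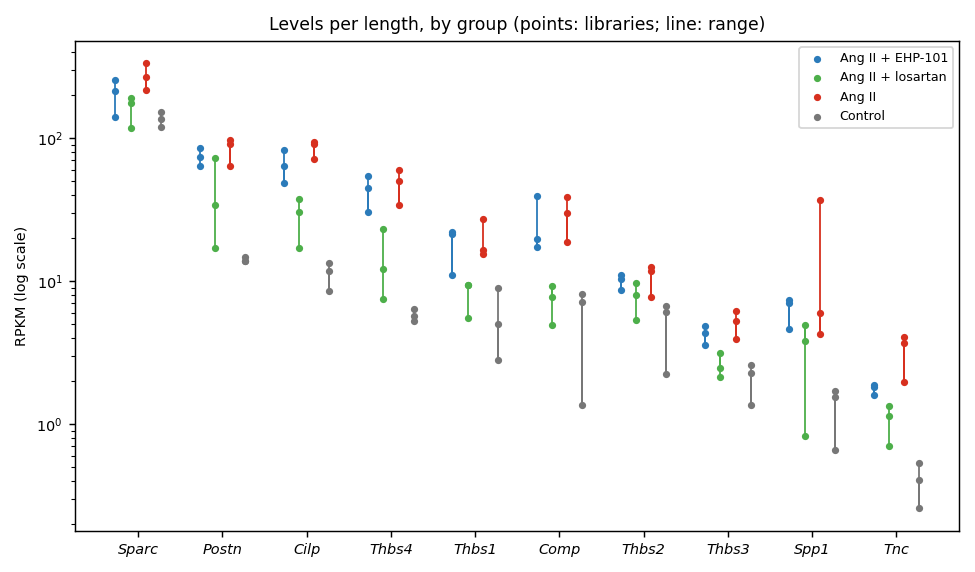
Level of each gene per length in RPKM (log axis), by group; points are libraries and lines join the lowest and highest of the 3. By their means, Sparc stands highest and Tnc lowest in each of the 4 groups, and the widest gaps between Ang II and Control hearts are those of Spp1, Thbs4, Tnc and Cilp.

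Under Ang II alone, every member was higher than in saline hearts. In all 10 the 3 Ang II libraries lay above the 3 Control libraries, which held for 12.3% of all tested genes. With p-values from edgeR's quasi-likelihood test, adjusted by Benjamini-Hochberg over all tested genes, 5 of the 10 rose (Cilp, Tnc, Thbs4, Postn and Thbs3), against 0.515% of all tested genes called higher in that comparison, and all 10 had an unadjusted p under 0.05, against 9.09% called higher at that level. The median log2 fold change was 2.48 over the members and -0.00068 over all tested genes. Without Control replicate 2, 2 of the 10 were called, Cilp and Tnc, and 3 were called without Ang II replicate 1, Ang II replicate 3 or Control replicate 3. Over all tested genes, those fits called 15, 8, 8 and 21 genes in that order, against 83 with all libraries. DESeq2 called all 10, against 2.39% of the genes that it tested.

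Postn, chr3:54361109-54391037, had 561, 647 and 741 CPM in Ang II + EHP-101 hearts, 630.4, 297 and 149 CPM in Ang II + losartan hearts, 789.8, 559.8 and 847 CPM in Ang II hearts, and 121, 128 and 119.6 CPM in Control hearts. Control values were tight and stood below every infused heart. The losartan libraries were the most scattered, one of them within the range of Ang II hearts and one close to Control. Postn rose 5.96-fold in Ang II hearts over Control hearts (log2 fold change 2.58 ± 0.39 SE, adjusted p = 0.0150 by edgeR's quasi-likelihood test). The call was lost when Ang II replicate 1 or 3, or any of the 3 Control libraries, was left out (adjusted p between 0.0626 and 0.118) and without the filter on low counts (0.0621), while the log2 fold change stayed between 2.47 and 2.76 in all alternatives.

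Tnc, chr4:63959785-64047015, is the member with the fewest reads per base. It had 14.7, 12.4 and 14.1 CPM in Ang II + EHP-101 hearts, 10.4, 8.82 and 5.44 CPM in Ang II + losartan hearts, 28.6, 15.3 and 31.6 CPM in Ang II hearts, and 3.17, 1.99 and 4.13 CPM in Control hearts. No library of one group overlapped with a library of the next: Ang II hearts were highest, EHP-101 hearts next, then losartan hearts, then Control. Tnc rose 8.05-fold in Ang II hearts over Control hearts (log2 fold change 3.01 ± 0.32, adjusted p = 0.00176 by edgeR's quasi-likelihood test) and was called under all 20 alternatives. Of its exon bases, 2.26% are shared with 8030451A03Rik on the opposite strand, which the unstranded kit cannot separate.

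Among the pentameric thrombospondins, Thbs4, a form made in stressed heart muscle and in tendon, had the largest log2 fold change in Ang II hearts over Control hearts. Thbs4, chr13:92751590-92794818, had 148, 99.7 and 178 CPM in Ang II + EHP-101 hearts, 76.2, 40.2 and 24.5 CPM in Ang II + losartan hearts, 165, 113 and 197 CPM in Ang II hearts, and 21.1, 17.4 and 18.9 CPM in Control hearts. Every infused library lay above every Control library, and the losartan libraries lay below all those of the other infused groups. Thbs4 rose 8.26-fold in Ang II hearts over Control hearts (log2 fold change 3.05 ± 0.37, adjusted p = 0.00435 by edgeR's quasi-likelihood test), and the call was lost in 1 of 20 alternatives, without Control replicate 2 (log2 fold change 2.98, adjusted p = 0.0898).

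Comp, chr8:70373558-70382066, best known from cartilage and tendon, where it binds collagens, had 58.2, 51.7 and 116 CPM in Ang II + EHP-101 hearts, 22.9, 27.4 and 14.7 CPM in Ang II + losartan hearts, 89.1, 55.6 and 114 CPM in Ang II hearts, and 24.2, 4.04 and 21.3 CPM in Control hearts. Losartan and Control libraries overlapped, while both other infused groups stood above them. In Ang II hearts the mean was 5.199-fold that of Control hearts (log2 fold change 2.38 ± 0.55, adjusted p = 0.0962 by edgeR's quasi-likelihood test), and its log2 fold change without Control replicate 2, the lowest library, was 1.92. Thbs3, chr3:89215180-89226837, had 21.02, 17.3 and 23.6 CPM in Ang II + EHP-101 hearts, 11.8, 15.3 and 10.3 CPM in Ang II + losartan hearts, 30.0, 19.1 and 25.5 CPM in Ang II hearts, and 12.6, 6.51 and 11.01 CPM in Control hearts. It showed the same split, with losartan and Control libraries overlapping below the others, on a smaller scale. Thbs3 rose 2.47-fold in Ang II hearts over Control hearts (log2 fold change 1.303 ± 0.24, adjusted p = 0.0381 by edgeR's quasi-likelihood test), a call made in 10 of 20 alternatives. It was lost without Control replicate 2 (adjusted p = 0.0898) and without Ang II replicate 1 or 3, EHP-101 replicate 1 or 3, losartan replicate 1, or Control replicate 1 or 3. Scaling by library size alone and a fit of only the groups compared also lost it. Thbs3 shares 6.59% of its exon bases with Mtx1 on the opposite strand.

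Neither of the trimeric thrombospondins passed edgeR's test between Ang II and Control hearts. Thbs1, chr2:118111876-118127133, had 129, 67.5 and 135 CPM in Ang II + EHP-101 hearts, 56.7, 56.6 and 33.4 CPM in Ang II + losartan hearts, 99.7, 94.5 and 164 CPM in Ang II hearts, and 54.6, 17.0 and 30.7 CPM in Control hearts. EHP-101 and Ang II libraries overlapped, and so did losartan and Control libraries, which all lay below the other 2 groups. Its mean in Ang II hearts was 3.4998-fold that in Control hearts (log2 fold change 1.81 ± 0.40, adjusted p = 0.0718 by edgeR's quasi-likelihood test) and the log2 fold change was 1.49 without Control replicate 2. Without Control replicate 1, the highest of its group, Thbs1 was called (log2 fold change 2.32, adjusted p = 0.0464 by the same test). Thbs1 shares 3.42% of its exon bases with Gm29233 on the opposite strand. Thbs2, chr17:14665500-14694235, which limits collagen fibril disorder and new vessel growth, had 72.8, 60.3 and 77.8 CPM in Ang II + EHP-101 hearts, 68.5, 56.0 and 37.6 CPM in Ang II + losartan hearts, 87.8, 54.7 and 82.6 CPM in Ang II hearts, and 46.6, 15.7 and 42.9 CPM in Control hearts. The 3 infused groups overlapped with each other, and Control replicate 2 was far below its own group. The difference between Ang II and Control hearts did not pass the test for Thbs2 (log2 fold change 1.09 ± 0.34, adjusted p = 0.170 by edgeR's quasi-likelihood test, and 0.75 without Control replicate 2).

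Sparc, chr11:55394500-55423183, the most abundant member, had 531, 815 and 966 CPM in Ang II + EHP-101 hearts, 446, 723 and 670.0 CPM in Ang II + losartan hearts, 1021, 829 and 1275 CPM in Ang II hearts, and 458, 581 and 518 CPM in Control hearts. Ang II libraries were above all Control and losartan libraries, and EHP-101 libraries overlapped with every group. Its mean in Ang II hearts was 2.01-fold that in Control hearts (log2 fold change 1.005 ± 0.24, adjusted p = 0.102 by edgeR's quasi-likelihood test), and it was called without the filter on low counts (adjusted p = 0.0270). Sparc was also the member on which Control replicate 2 was highest rather than lowest in its group, together with Postn.

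Spp1, chr5:104435118-104441050, had 12.2, 7.58 and 11.6 CPM in Ang II + EHP-101 hearts, 6.27, 8.07 and 1.35 CPM in Ang II + losartan hearts, 9.83, 7.06 and 61.2 CPM in Ang II hearts, and 2.55, 1.08 and 2.80 CPM in Control hearts. Ang II replicate 3 alone carried the high mean, and the other 2 Ang II libraries were within or below the EHP-101 range. Its mean in Ang II hearts was 11.95-fold that in Control hearts (log2 fold change 3.58 ± 0.88, adjusted p = 0.115 by edgeR's quasi-likelihood test), and that log2 value became 1.97 without Ang II replicate 3. It was called without Ang II replicate 2 (log2 fold change 4.02, adjusted p = 0.0442). It shares 18.8% of its exon bases with Gm42793 on the same strand, so its level is uncertain to that extent. Cilp, chr9:65265180-65280605, had 272, 207 and 351 CPM in Ang II + EHP-101 hearts, 160.1, 129 and 73.0 CPM in Ang II + losartan hearts, 404, 303 and 385 CPM in Ang II hearts, and 56.6, 36.4 and 50.1 CPM in Control hearts. Losartan libraries formed a level of their own, above every Control library and below every library of the other infused groups. Cilp rose 7.62-fold in Ang II hearts over Control hearts (log2 fold change 2.93 ± 0.29, adjusted p = 0.00176 by edgeR's quasi-likelihood test), had the smallest p of all 15336 genes there, and was called under all 20 alternatives.

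**Figure D2:**
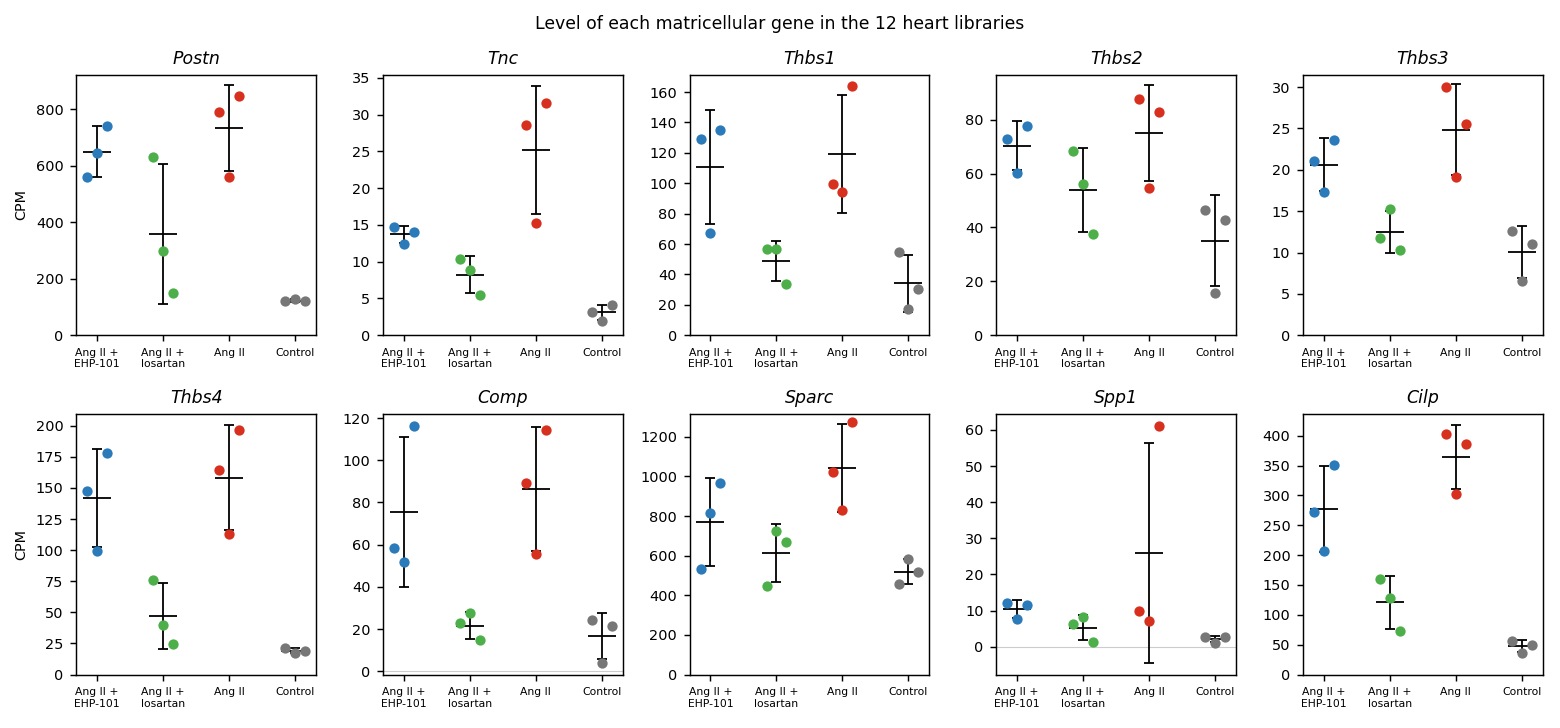
Level of each gene in every library in CPM, 1 panel per gene with its own axis that includes 0; points are libraries, and bars are the mean and SD of 3 libraries, in the order Ang II + EHP-101, Ang II + losartan, Ang II and Control. The 3 Ang II libraries lie above the 3 Control libraries in each of the 10 panels, and Spp1 reaches 61.2 CPM in Ang II replicate 3 alone.

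With EHP-101 in the last 2 weeks, the members' mean levels were between 40.2% (Spp1) and 93.7% (Thbs2) of their means under Ang II alone. None of the 10 passed edgeR's quasi-likelihood test against Ang II alone, nor did any of the 15336 tested genes (0%). An unadjusted p under 0.05 was found for 1 member, Tnc, against 5.11% of all tested genes that were lower at that level, and DESeq2, which called 0.329% of its genes lower, and limma-voom also called 0 members. All 10 log2 fold changes were below 0, with a median of -0.23 over the members against 0.00025 over all tested genes, but those of Thbs1, Thbs2, Thbs4, Comp and Spp1 crossed 0 when 1 library was left out. Tnc was the only member whose EHP-101 libraries all lay below the Ang II libraries, which held for 9.74% of all tested genes. It averaged 13.7 ± 1.16 CPM in Ang II + EHP-101 hearts and 25.2 ± 8.68 CPM in Ang II hearts, a log2 fold change of -0.88 with a 95% interval from -1.51 to -0.24 (adjusted p = 0.479).

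For the other members the intervals show what the 3 libraries per group could resolve. The difference between Ang II + EHP-101 and Ang II hearts was -0.17 for Postn on the log2 scale (95% interval -0.97 to 0.63), -0.16 for Thbs4 (-0.89 to 0.58) and -0.40 for Cilp (-0.99 to 0.19). These intervals include both no difference and a fall of a size that, for Postn and Cilp, comes close to a log2 value of -1. Sparc had -0.43 (-0.96 to 0.09) and Thbs3 -0.27 (-0.78 to 0.24). Thbs1 and Thbs2 were nearest to 0, at -0.11 (-0.95 to 0.73) and -0.09 (-0.82 to 0.63). Comp had -0.20 (-1.33 to 0.93). The widest interval belonged to Spp1, at -1.31 (-3.02 to 0.39), whose log2 difference was 0.31 without Ang II replicate 3. Shares of the Ang II mean's excess over the Control mean that the Ang II + EHP-101 mean kept were also taken. They were 89.7% for Thbs1, 88.3% for Thbs4, 88.2% for Thbs2, 86.4% for Postn and 84.3% for Comp. For Cilp and Thbs3 they were 72.4% and 71.4%, for Tnc and Sparc 48.1% each, and for Spp1 34.9%.

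Against saline hearts, the Ang II + EHP-101 hearts still had 4 of the 10 members called higher by edgeR's quasi-likelihood test, against 0.3% of all tested genes. Thbs4 rose 7.41-fold (log2 fold change 2.89 ± 0.37, adjusted p = 0.00822), Cilp 5.80-fold (2.54 ± 0.29, adjusted p = 0.00503), Postn 5.29-fold (2.40 ± 0.39, adjusted p = 0.0269) and Tnc 4.39-fold (2.13 ± 0.32, adjusted p = 0.0208). In 9 of the 10, all but Sparc, the EHP-101 libraries lay above all Control libraries, as in 10.7% of all tested genes. Leaving out any 1 Control library kept Cilp alone called (without Control replicate 2, adjusted p = 0.0327), and leaving out any 1 EHP-101 library kept Thbs4 and Cilp. Over all tested genes, 5 to 35 were called without 1 Control library and 9 to 22 without 1 EHP-101 library, against 61 with all libraries. DESeq2 called 7 members, against 2.15% of its genes. With the replicate number as a block, the same 4 were called, and the calls over all tested genes were 36 with the block, against 61 without it. All 10 members had an unadjusted p under 0.05, against 8.76% of all tested genes that were higher at that level. Sparc averaged 771 ± 221 CPM in Ang II + EHP-101 hearts and 519 ± 61.7 CPM in Control hearts and did not pass (log2 fold change 0.57, adjusted p = 0.270).

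Under losartan, all 10 members had lower means than under Ang II alone. By edgeR's quasi-likelihood test none of the 10 passed against Ang II alone, and none of all tested genes did (0%), but 9 of the 10 had an unadjusted p under 0.05, all lower, against 6.14% of all tested genes. In 7 of the 10, all but Postn, Thbs2 and Spp1, the losartan libraries lay below all Ang II libraries, as in 10.5% of all tested genes. All 10 log2 fold changes were below 0 in every alternative, with a median of -1.44 over the members against 0.00299 over all tested genes. DESeq2 called 4 members lower, Cilp (adjusted p = 5.93e-05), Tnc (0.000354), Thbs4 (0.000551) and Thbs3 (0.0204), against 0.7% of its genes, while limma-voom called 0. This comparison and the one of EHP-101 with Ang II alone share the 3 Ang II libraries.

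The largest losartan differences were in Spp1, Comp and Thbs4. Thbs4 averaged 47.0 ± 26.5 CPM in Ang II + losartan hearts and 158 ± 42.3 CPM in Ang II hearts, a log2 fold change of -1.75 ± 0.35 (95% interval -2.51 to -0.99, adjusted p = 0.166 by edgeR's quasi-likelihood test). Comp averaged 21.7 ± 6.46 CPM in Ang II + losartan hearts and 86.4 ± 29.5 CPM in Ang II hearts (-1.996 ± 0.54, adjusted p = 0.316). Both means under losartan were below 30% of the Ang II mean (29.7% and 25.1%). Cilp averaged 121 ± 44.1 CPM in Ang II + losartan hearts and 364 ± 53.7 CPM in Ang II hearts (-1.59 ± 0.28, adjusted p = 0.166), and Tnc 8.22 ± 2.54 CPM in Ang II + losartan hearts and 25.2 ± 8.68 CPM in Ang II hearts (-1.62 ± 0.30, adjusted p = 0.166). Both stood at about the same share of the Ang II mean, 33.2% and 32.6%. For Spp1 the log2 fold change was -2.32 ± 0.81 (adjusted p = 0.434), and -0.69 without Ang II replicate 3. Postn differed by -1.03 ± 0.37 (adjusted p = 0.443), and by -1.72 without losartan replicate 1, its high library. The remaining members had log2 fold changes of -1.29 (Thbs1), -0.997 (Thbs3), -0.77 (Sparc) and -0.47 (Thbs2), with adjusted p of 0.350, 0.256, 0.374 and 0.765 by the same test.

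**Figure D3:**
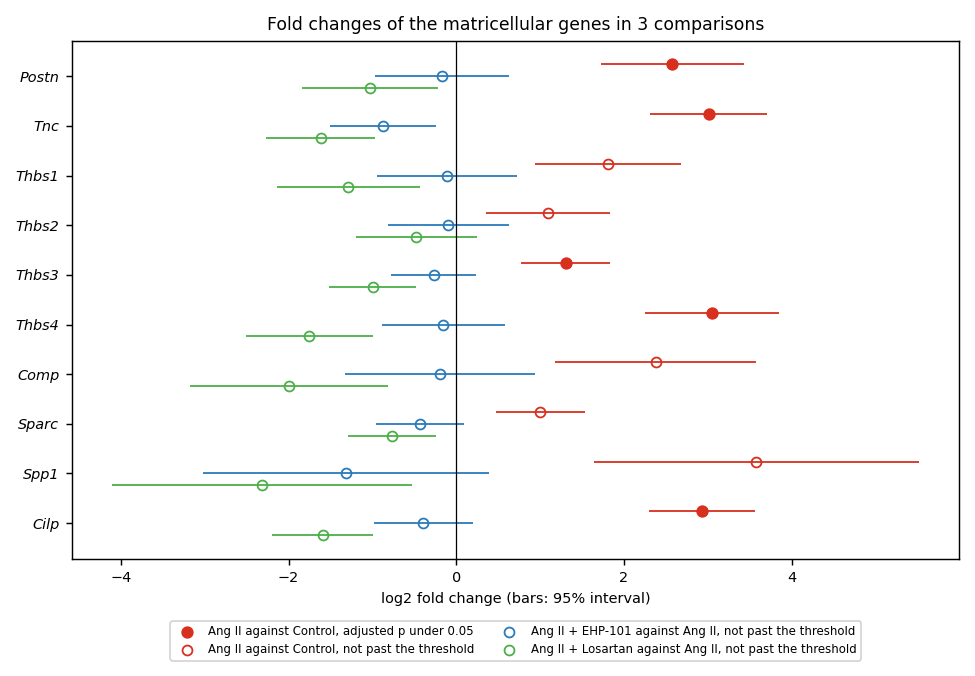
Log2 fold change of each gene with its 95% interval from edgeR in 3 comparisons: Ang II against Control, Ang II + EHP-101 against Ang II, and Ang II + losartan against Ang II. Filled points passed the adjusted p threshold of 0.05 and are 5 genes of the first comparison, and the losartan points lie further below 0 than the EHP-101 points in all 10 genes.

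Ang II + losartan hearts were compared with saline hearts next. All 10 log2 fold changes were above 0, with a median of 0.94 over the members and -0.02 over all tested genes, although Comp was at -0.065 without Control replicate 2. None passed edgeR's quasi-likelihood test, as for all tested genes (0%). An unadjusted p under 0.05 was found for 4 members, Postn, Tnc, Thbs4 and Cilp, against 5.54% of all tested genes that were higher at that level. In the same 4 the losartan libraries did not overlap with the Control libraries, as in 8.27% of all tested genes that were higher. DESeq2 called 3 of them (Cilp, adjusted p = 0.00831; Tnc, 0.0219; Postn, 0.0241), against 0.154% of its genes. Their log2 fold changes over Control were 1.55 ± 0.38 for Postn, 1.39 ± 0.32 for Tnc, 1.29 ± 0.35 for Thbs4 and 1.34 ± 0.28 for Cilp. Without losartan replicate 1, the value of Postn was 0.86. Comp averaged 21.7 ± 6.46 CPM in Ang II + losartan hearts and 16.5 ± 10.9 CPM in Control hearts, and Thbs3 averaged 12.5 ± 2.55 CPM in Ang II + losartan hearts and 10.03 ± 3.15 CPM in Control hearts, both within the spread of the libraries.

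Set directly against each other, EHP-101 hearts had higher means than losartan hearts for all 10 members (median log2 fold change 0.93, against 0.00045 over all tested genes). None passed edgeR's quasi-likelihood test, and none of all tested genes did (0%). In 7 of the 10 the unadjusted p was under 0.05, against 3.07% of all tested genes that were higher at that level, and in 6 (Tnc, Thbs1, Thbs3, Thbs4, Comp and Cilp) the libraries of the 2 treatments did not overlap, as in 6.57%. DESeq2 called Thbs4 (adjusted p = 0.00758) and Cilp (0.0245), against 0.0943% of its genes. The log2 fold changes were 1.60 for Thbs4 (95% interval 0.84 to 2.35), 1.7999 for Comp (0.62 to 2.98), 1.20 for Cilp (0.60 to 1.796) and 1.18 for Thbs1 (0.33 to 2.03). For Sparc, at 0.33 (-0.19 to 0.86), Thbs2, at 0.38 (-0.35 to 1.11), and Spp1, at 1.003 (-0.77 to 2.77), the intervals included 0.

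**Figure D4:**
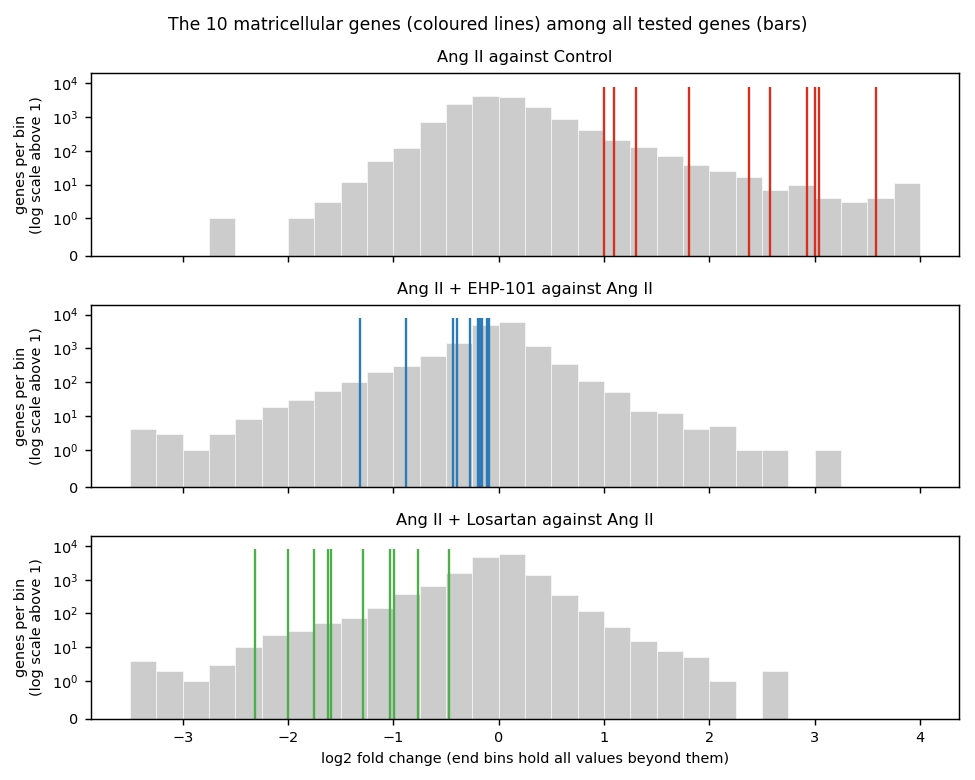
Number of tested genes by log2 fold change (bars, log axis above 1) in 3 comparisons, with a coloured line for each of the 10 members. The members lie between 1.005 and 3.58 for Ang II against Control, between -1.31 and -0.09 for Ang II + EHP-101 against Ang II, and between -2.32 and -0.47 for Ang II + losartan against Ang II.

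The order of the group means was the same in all 10 members, from Ang II through Ang II + EHP-101 and Ang II + losartan to Control. Of neighbours in that order, Ang II and EHP-101 libraries overlapped in 9 of 10 members, and losartan and Control libraries in 6 of 10. Most tested genes also overlapped in both pairs. EHP-101 libraries lay wholly below the Ang II libraries in 9.74% of all tested genes and wholly above in 7.01%. Losartan libraries lay wholly above the Control libraries in 8.27% and wholly below in 7.09%. Asked whether any of the 4 groups differed, edgeR's quasi-likelihood test over 3 coefficients called 3 members, Cilp (adjusted p = 0.00670), Tnc (0.0101) and Thbs4 (0.0117), against 0.189% of all tested genes, with Postn at 0.0535. The count was 1 without Ang II replicate 1 or Control replicate 1 and 2 without Control replicate 2 or 3. Over all tested genes, those fits called 3, 5, 19 and 7 genes in that order, against 29 with all libraries. Libraries of a group also differed in step. Ang II replicate 2 was the lowest of its group in all 10 members, losartan replicate 3 in 9, EHP-101 replicate 2 in 8 and Control replicate 2 in 8. Averaged over the members, the deviation from each gene's mean was 0.51 in Ang II replicate 2 on the log2 scale, against 1.03 and 1.44 in the other 2 Ang II libraries, and -1.002 in losartan replicate 3, against -0.02 and -0.14. The 10 genes were read from the same libraries and are not 10 replicates of a condition.

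**Figure D5:**
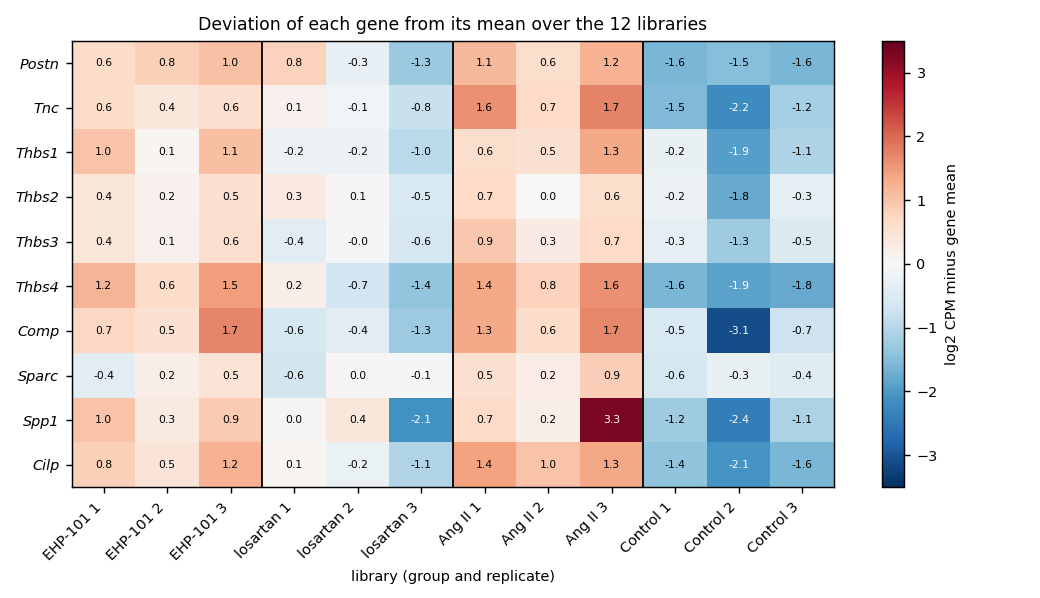
Log2 CPM of each gene in each library minus the gene's mean over the 12 libraries (colour and printed value). Control columns are below 0 in every gene, and losartan replicate 3 and Control replicate 2 are the lowest columns of their groups.

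Other genes of the pathway were taken from 4 lists by role. Of 19 tested matricellular and related genes outside the members, 2 rose in Ang II hearts over Control hearts by edgeR's quasi-likelihood test and none fell, with a median log2 fold change of 0.70. Fstl1, a secreted relative of Sparc, averaged 419 ± 80.8 CPM in Ang II hearts and 174 ± 7.76 CPM in Control hearts (log2 fold change 1.27 ± 0.17, adjusted p = 0.00950), and Emilin1, an elastic fibre glycoprotein, 78.6 ± 14.3 CPM in Ang II hearts and 39.7 ± 5.19 CPM in Control hearts (0.99 ± 0.19, adjusted p = 0.0480). Fibronectin (Fn1) did not pass at a log2 value of 1.94 (adjusted p = 0.0965), nor did Ccn1 at 0.70 (adjusted p = 0.114).

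Among 20 tested receptors of the members, 1 rose, Egfr, through which tenascin-C can signal, at 22.7 ± 2.90 CPM in Ang II hearts and 10.7 ± 3.08 CPM in Control hearts (adjusted p = 0.0480 by edgeR's quasi-likelihood test). The median over the receptors was 0.39. Sdc1, a heparan sulphate co-receptor, differed by 0.88 on the log2 scale (adjusted p = 0.1002), and the integrin chains Itga5 and Itgb5 had 0.36 and 0.42 (adjusted p = 0.172 and 0.177). Among 19 tested upstream ligands, receptors and transcription factors, 1 rose: Tgfb3, a TGF-β ligand, at 58.1 ± 13.8 CPM in Ang II hearts and 22.9 ± 3.80 CPM in Control hearts (log2 fold change 1.34 ± 0.25, adjusted p = 0.0406), with a list median of 0.25. Runx2 (1.39), Tgfb2 (0.83) and Runx1 (1.32) did not pass (adjusted p = 0.0988, 0.102 and 0.105). Of 11 tested proteases that cleave members, 2 rose, the gelatinase Mmp2 (1.62 ± 0.23, adjusted p = 0.00987) and its membrane-bound activator Mmp14 (1.25 ± 0.19, adjusted p = 0.0142), and Bmp1 (0.73) and Adamts4 (1.35) did not pass (adjusted p = 0.0889 and 0.0988).

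In Ang II + EHP-101 hearts against Control hearts, Fstl1 (0.92, adjusted p = 0.0422), Tgfb2 (1.21, adjusted p = 0.0304) and Mmp2 (1.42, adjusted p = 0.0255) rose by the same test. In the 4 comparisons that remain, 0 genes of the 4 lists passed it. Against Ang II alone, the list medians under EHP-101 were -0.25 for matricellular genes, -0.05 for receptors, -0.12 for upstream genes and -0.51 for proteases, with 1 of 19, 1 of 20, 0 of 19 and 4 of 11 genes lower at an unadjusted p under 0.05, against 5.11% of all tested genes. Under losartan they were -0.65, -0.17, -0.34 and -0.50 in the same order, with 8, 3, 5 and 4 genes lower at that level, against 6.14% of all tested genes.

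Markers of the cell types in the heart are given beside these results. Summed over 10 fibroblast markers, Ang II + EHP-101 libraries had 3346 to 3734 CPM, Ang II + losartan libraries 2649 to 3277 CPM, Ang II libraries 3592 to 4331 CPM and Control libraries 2298 to 3806 CPM. Of these 10, 1 rose in Ang II hearts over Control hearts, Pi16 (log2 fold change 0.96, adjusted p = 0.0190 by edgeR's quasi-likelihood test). Over all tested genes, 0.515% were called higher there. Lum, Mfap5, Dpt, Dcn and Pdgfra were also higher at an unadjusted p under 0.05, against 9.09% of all tested genes. Tcf21, Gsn, Scara5 and Cd248 were not. The median log2 fold change of the list was 0.50. Control replicate 2, low for 8 of the 10 members, was also lowest in that sum. Ang II replicate 2, low for all 10 members, and losartan replicate 3, low for 9, had the lowest sums of their groups. In the EHP-101 group the sums went the other way. Replicate 2, low for 8 members, had the highest sum of that group (3734 CPM), and replicate 3, highest for 8 members, had the lowest (3346 CPM). The sum rests mostly on the most abundant markers, Gsn and Dcn (means of 1714 and 995 CPM over all libraries). By the mean log2 deviation of the same 10 markers, EHP-101 replicate 3 was highest (0.154), then replicate 2 (0.115) and replicate 1 (-0.010). Whether the fibroblast level had a part in the members' differences was not tested.

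The 7 smooth muscle and pericyte markers summed to 1398 to 1596 CPM in Ang II + EHP-101 libraries, 1330 to 1564 CPM in Ang II + losartan libraries, 1381 to 1713 CPM in Ang II libraries and 862 to 1201 CPM in Control libraries. In Ang II hearts against Control hearts, 0 of 7 were called by edgeR and 6 of 7 were higher at an unadjusted p under 0.05, against 9.09% of all tested genes. The sum of the 9 cardiomyocyte markers was lower in every Ang II library than in every Control library: they summed to 67789 to 79697 CPM in Ang II + EHP-101 libraries, 67608 to 79259 CPM in Ang II + losartan libraries, 60414 to 73240 CPM in Ang II libraries and 76340 to 81463 CPM in Control libraries. Of these 9, 0 were called in Ang II hearts against Control hearts by edgeR and 4 were lower at an unadjusted p under 0.05, against 8.53% of all tested genes. Myh6, the highest of the 9, had a log2 fold change of 0.056. Tendon and cartilage cells make Comp, Thbs4 and Cilp as well. Their 11 markers, of which Fmod was highest, summed to 116 to 164 CPM in Ang II + EHP-101 libraries, 46.6 to 83.0 CPM in Ang II + losartan libraries, 112 to 229 CPM in Ang II libraries and 35.0 to 109 CPM in Control libraries, with 1 marker at 0 in all Control libraries. None of the 8 that were tested was called in Ang II hearts against Control hearts by edgeR. Of them, 3 were higher at an unadjusted p under 0.05, against 9.09% of all tested genes. Atrial markers (8) summed to 551 to 1200 CPM in Ang II + EHP-101 libraries, 91.8 to 2202 CPM in Ang II + losartan libraries, 1640 to 2939 CPM in Ang II libraries and 328 to 1969 CPM in Control libraries. The lowest atrial sums of their groups were in EHP-101 replicate 2, losartan replicate 3 and Control replicate 2, each low for most members. In Ang II hearts the lowest was in replicate 3, which was highest for 7 members. The 14 macrophage and monocyte markers summed to 258 to 478 CPM in Ang II + EHP-101 libraries, 399 to 570 CPM in Ang II + losartan libraries, 548 to 730 CPM in Ang II libraries and 496 to 705 CPM in Control libraries. Of these 14, 1 rose in Ang II hearts over Control hearts by edgeR's quasi-likelihood test, the monocyte receptor Ccr2 (log2 fold change 2.04, adjusted p = 0.0390), and none fell. Their median log2 fold change there was 0.23, and Lyz2, the highest of them, had -0.04. Against Ang II alone the median of these 14 was -0.62 in Ang II + EHP-101 hearts and -0.54 in Ang II + losartan hearts, with 0 called. At an unadjusted p under 0.05, 8 and 6 of the 14 were lower, against 5.11% and 6.14% of all tested genes. The part of these cell types in the members' differences was not tested.

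Genes with the most similar pattern were found by the mean absolute difference of log2 CPM, each gene centred on its own mean, over the 12 libraries, among 12423 non-member genes. A value of 0 would be the same pattern. Frem1, a basement membrane adhesion protein, was nearest to Cilp (0.16), Postn (0.21) and Thbs4 (0.24) and second nearest to Tnc (0.28), where the median over all candidates was 0.99 to 1.23. It averaged 3.54 ± 1.42 CPM in Ang II + EHP-101 hearts, 1.61 ± 0.786 CPM in Ang II + losartan hearts, 4.43 ± 0.949 CPM in Ang II hearts and 0.629 ± 0.0378 CPM in Control hearts. Postn was further followed by Aspn (0.22) and Nox4 (0.27), and Tnc was closest to Col22a1 (0.27), with Zfp185 after Frem1 (0.32). For Thbs4 the next were Ltbp2 (0.28) and Lox (0.29), for Cilp Ltbp2 (0.25) and Zfp185 (0.26), and for Comp Col12a1 (0.24), Ltbp2 (0.25) and Fmod (0.28). Near Thbs1 were Piezo2 (0.21), Zfp185 (0.25) and Gcnt4 (0.26), where the median over all candidates was 0.79. Near Thbs2 were Ptprf (0.14) and Slc1a3 (0.16), with a median of 0.51. Near Thbs3 were Enpp1 (0.12), Tgfb3 (0.14) and Pdgfrl (0.15), with a median of 0.54. Near Sparc were C1qtnf6 (0.13), Igfbp7 (0.14) and Chst2 (0.14), with a median of 0.44. Spp1 had the largest distances to its nearest genes: Zfp185, Nox4 and Acan were at 0.46 each, with a median of 1.17. Since the medians differ, distances are not on 1 scale between members. All these genes share the same libraries, so the values describe likeness in these 12 libraries and nothing further.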

How the data were processed

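The deposited values were raw read counts per gene, made by the authors from 12 mouse heart libraries. Per the labels' protocols, 300 ng of RNA per sample was selected for poly(A) tails, made into libraries with the TruSeq kit v2, which keeps no strand, and read as single ends of 50 bp. Per the submitters' processing notes, the tools were fastp 0.20.0, HISAT2 2.1.0, featureCounts 2.0.0 and edgeR 3.30.0 on GRCm38. Groups came from the sample titles. Titles of Control libraries read Ang II control in brackets, and these libraries were taken as the saline group. Symbols, positions and exon lengths came from GENCODE M21, which named 47310 of 47729 genes, and promoters from the RefSeq table of GRCm38.p6.

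In R 4.3.3 with edgeR 4.0.16, genes were filtered with filterByExpr, libraries were scaled by TMM, and all 12 libraries entered 1 robust quasi-likelihood model with 4 group means (common biological coefficient of variation 0.189). The 6 pairwise contrasts were two-sided, with Benjamini-Hochberg adjustment over all 15336 tested genes and a threshold of 0.05. The SE is the log2 fold change divided by the square root of the F statistic and so restates that test. CPM values are on TMM-scaled library sizes, with the SD over the 3 libraries of a group. Exact permutation of 3 against 3 libraries cannot go below p = 0.1 and was not used. Depth was 22155418 to 24040516 counts. The test was first tried on simulated counts with known changes.

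The members and all lists were chosen with earlier results of these data known. The named genes are all members, up to 4 genes of each list by p in Ang II against Control with those called elsewhere, and the 3 most similar genes of each member. A result for 1 of these genes is not reported here. Alternatives were DESeq2 1.42.0, limma-voom (limma 3.58.1), scaling by RLE or by library size alone, no filter or a mean of at least 5 CPM as the filter, a block for the replicate number, a fit of only the groups compared, and each library left out. Deviations of same-numbered libraries from their group means correlated at -0.33 to 0.33, over 0.1 in 5 of 18 pairs. Only for Ang II + EHP-101 with Control were all 3 correlations over 0.1 (0.221, 0.226 and 0.100). The blocked values are given beside that comparison, and in the other 5 the numbers were not taken as pairs.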

Additional observations from a re-analysis of the deposited data

How the results depend on the processing

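Each library left out in turn gave 2 to 6 members called in Ang II against Control (2 without Control replicate 2, 3 without Ang II replicate 1 or 3 or Control replicate 3), 1 to 4 in Ang II + EHP-101 against Control and 1 to 4 for any difference among the groups. The other 4 comparisons gave 0 members in each of these fits. DESeq2 called more members than edgeR: 10 in Ang II against Control, 7 in Ang II + EHP-101 against Control, 4 in Ang II + losartan against Ang II, 3 in Ang II + losartan against Control, 2 in Ang II + EHP-101 against Ang II + losartan and 9 for any difference. Without the filter, 1 member was called in Ang II + losartan against Ang II, Cilp (adjusted p = 0.0452). The cause of these differences between tools was not tested. The sign turned in 10 values, all with 1 library left out and none of them called. The ranges of log2 fold changes that follow are over all 20 alternatives. For Ang II + EHP-101 against Ang II, they were -0.28 to 0.19 for Thbs1 and -0.36 to 0.045 for Thbs4. Both genes were above 0 without Ang II replicate 3 (0.19 and 0.032) and without EHP-101 replicate 2 (0.15 and 0.045). The range was -0.28 to 0.040 for Thbs2, above 0 without Ang II replicate 1 or EHP-101 replicate 2 (0.0065). It was -0.65 to 0.059 for Comp, above 0 without Ang II replicate 3 or EHP-101 replicate 2 (0.015). For Spp1 it was -1.76 to 0.31, above 0 without Ang II replicate 3. For Ang II + losartan against Control, Comp ranged from -0.065 without Control replicate 2 to 0.76. Over all tested genes, Ang II against Control had 83 calls, with 513 by DESeq2, 51 by limma-voom, 167 without a filter, 20 in a fit of the 2 groups and 8 to 151 with a library left out. Ang II + EHP-101 against Control had 61, with 492 by DESeq2, 158 without a filter, 22 by library size alone, 14 in a fit of the 2 groups and 5 to 62 with a library left out. Ang II + EHP-101 against Ang II had 0, with 61, 10 and 3 by DESeq2, without a filter and in a fit of the 2 groups, and Ang II + losartan against Ang II had 0, with 108, 30 and 1 in the same order and 0 to 3 with a library left out. Ang II + losartan against Control had 0 and 22 by DESeq2, and Ang II + EHP-101 against Ang II + losartan had 0, with 25 by DESeq2, 3 without a filter and 0 to 2 with a library left out. Any difference had 29 calls, with 566 by DESeq2, 189 without a filter, 14 by library size alone and 3 to 31 with a library left out. With the replicate number as a block, members called stayed at 5, 0, 0, 4, 0 and 0 in the 6 comparisons and 3 for any difference, with no member's call changed, while calls over all genes went to 36 in Ang II + EHP-101 against Control and 9 for any difference. With scaling by library size alone, the median of all genes was 0.17 in Ang II against Control, -0.15 in Ang II + EHP-101 against Ang II and -0.12 in Ang II + losartan against Ang II, and no member's direction turned. With 3 libraries a group, and 37 to 99 counts of Tnc and 20 to 67 of Spp1 in the Control libraries, the precision of those levels is limited by both.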
